A study of Mus musculus with 6 samples.

Results

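Retinoic acid synthesis and binding in the infarcted mouse heart was followed through 9 genes: Rbp4, Stra6, Dhrs3, Aldh1a1, Aldh1a2, Aldh1a3, Crabp1, Crabp2 and Cyp26b1. The members were all gene probes whose name in the array files was one of these symbols, which gave 9 probes, 1 per gene, of 55681 gene probes. They were chosen with the comparison of antagomir against control already known. Their values are therefore given as a description, with no test, and nothing is supported with them. Hearts came from male C57BL/6 mice, 8 weeks old, whose left anterior descending coronary artery had been ligated to cause a myocardial infarction. One group had been given an antagomir against miR-433, a chemically modified oligonucleotide that blocks this microRNA, at 80 mg/kg into the tail vein on 3 days running. The other had been given a scrambled control oligonucleotide, for which no separate dose is stated. Hearts were taken 21 days after infarction, and 3 arrays were run per group. Infarction was common to both groups and there is no uninjured heart among the samples, so the comparison is between 2 treatments of an injured heart. Whether the 3 arrays of a group are 3 different mice is not stated, so p-values measure only the spread between these samples. The part of the heart that was sampled is not stated either.

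Retinoic acid is a hormone-like ligand made from vitamin A. Retinol travels in blood on the carrier RBP4 and can enter cells through the receptor STRA6. It is oxidised to retinaldehyde, a step that DHRS3 reverses, and retinaldehyde dehydrogenases of the ALDH1A family then make retinoic acid, irreversibly. Inside the cell, CRABP proteins carry retinoic acid to nuclear receptors or to the CYP26 enzymes, which break it down. In the heart, the epicardium is a known source of ALDH1A2, and retinoic acid is needed for the development of the ventricular wall.

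All levels are log2 of an array's processed signal minus that array's 75th percentile, so a level of 0 is a probe as bright as the 75th percentile. Levels of different probes are not comparable with one another, and each probe is compared only between arrays. Differences are antagomir mean minus control mean on this log2 scale, with n = 3 per group. The label of heart was checked: all 8 markers of ventricular cardiomyocytes were well above background on every array. Markers of atrial cardiomyocytes differed between arrays. Of 6 measured, 5 had a higher antagomir mean and 1 a lower one, and the groups overlapped for each. Sln, an atrial marker, had levels of -4.01, -2.14 and 0.53 on the control arrays and -1.46, 5.1 and 6.63 on the antagomir arrays. The part of atrial tissue in the member values was not tested. Gene spots well above background made up 57.7% to 58.5% on controls, and 55.2%, 56.2% and 73.6% on antagomir arrays 1 to 3. Antagomir array 3 stood apart among dim probes. Of 4074 probes that were dim on the other 5 arrays and had at least 60% purines (A or G), 82.4% were above background on it, against 4.9% of 2121 such probes with at most 40% purines. All arrays were read in 1 scan. By their scan positions, control arrays 1 and 2 lay in one row of the slide, and control array 3 lay in the other with the 3 antagomir arrays.

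Because purine content moved with the signal of dim probes on antagomir array 3, the first 30 bases of 4 member probes are shown with purines in capitals. They are the 3 members whose groups did not overlap and the 1 member that was dim on every array, read 5′ to 3′ from the array design (mm9).
Crabp2: ctGtctctctGGcctctActccttAtcctt
Stra6: AtGccAttAGttGtcAtGAAAGAAGttAGt
Aldh1a1: GActAGttGtGActtAAGctctGtccctcA
Crabp1: GtttAcccAcGtGGGAGAAtGAGAAcAAGA
The Crabp2 stretch held 5 purines of 30 bases and the Crabp1 stretch held 20. Over the whole 60 bases the Crabp2 probe had 33.3% purines, the lowest of the 9, and Crabp1 and Aldh1a3 the highest with 58.3%.

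The blocked microRNA is shown with its seed, bases 2 to 8, in capitals. The labels do not name the arm, so both mature forms are given, from RefSeq (GRCm38.p6, plus strand, chr12:109591729-109591750 and chr12:109591781-109591802).
mmu-miR-433-5p: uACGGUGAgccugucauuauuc
mmu-miR-433-3p: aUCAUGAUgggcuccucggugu
Letters that pair with bases 2 to 8 of either seed (TCACCGT and ATCATGA), searched on both strands, were in 0 of the 9 member probes, against 0.219% and 0.886% of all 55661 gene probes with a sequence and a usable spot. The shorter match to bases 2 to 7 of the 3p arm, TCATGA, began at base 14 of the Stra6 probe and was in 1.94% of all probes. A match in these letters is a description only, and the rest of each transcript was not searched.

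Crabp2 had the largest difference of the 8 members measured. Its product carries retinoic acid into the nucleus to its receptors. The probe lay at chr3:87757207-87757266 (mm9, plus strand). Crabp2 levels were 0.54, -0.27 and 0.49 on the control arrays, in the order of their numbers, and -1.66, -2.29 and -1.83 on the antagomir arrays. All 3 antagomir arrays were below all 3 controls, by 1.38 at the closest pair, and no array of either group stood far from the others. The means were 0.25 ± 0.46 in controls and -1.92 ± 0.33 with the antagomir (SD, n = 3), a difference of -2.18 (SE 0.29) or 4.52-fold. With each array left out in turn the difference ran from -2.44 to -2.0. It was -2.42 within the slide row that holds both groups, where control array 3 is the only control. The probe was well above background on all 6 arrays, and of the 9 it had the fewest purines. Its level on antagomir array 3 lay between those of the other antagomir arrays.

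Crabp1, the closest relative of Crabp2, was not well above background on any array and was not measured here. The Crabp1 probe is at chr9:54616192-54616251 (plus strand). Processed signals of Crabp1 were 2.91, 3.13 and 3.14 on the control arrays and 3.12, 3.03 and 22.1 on the antagomir arrays. Antagomir array 3 alone was brighter, by 2.88 on the log2 scale over the mean of the other 5 arrays. Dim probes with a purine share from 55 to under 60% were brighter on that array by a median of 3.26, with quartiles of 2.48 and 3.92, so the Crabp1 signal lay within the quartiles of probes of like composition. No fold is given for Crabp1.

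**Figure D1:**
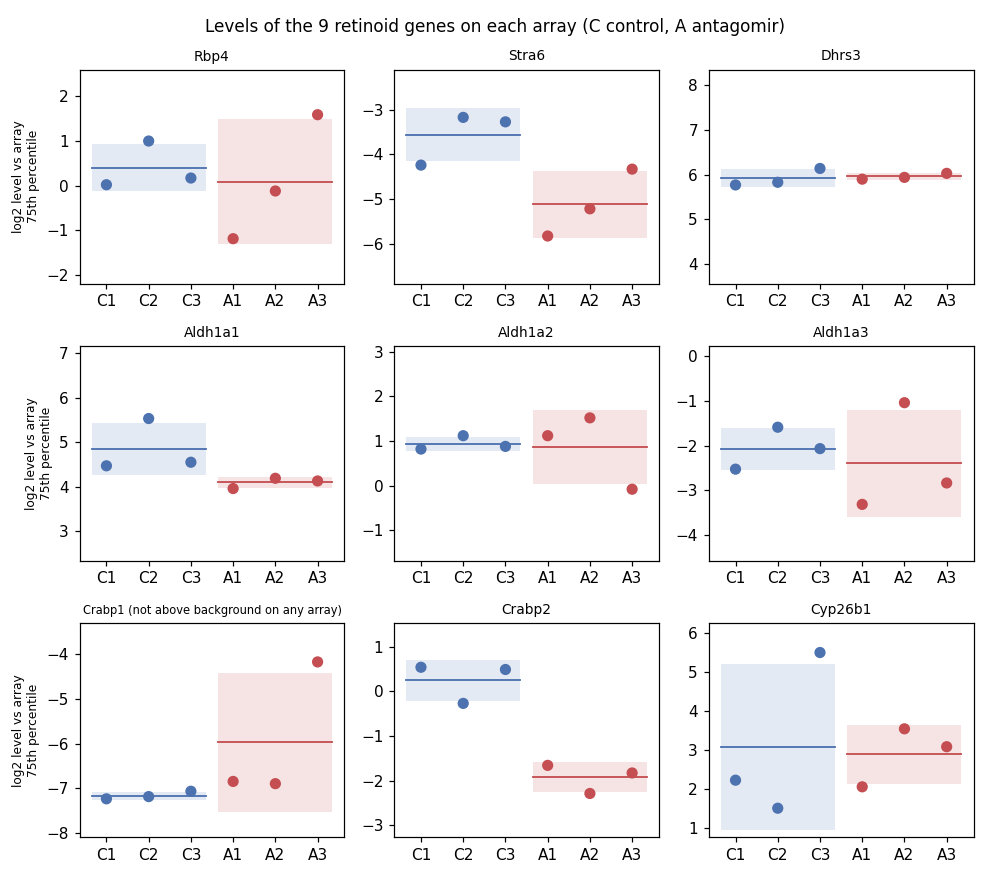
Level of each of the 9 genes on each array (log2 signal minus the array's 75th percentile; C1 to C3 controls in blue, A1 to A3 antagomir in red), with the group mean as a line and 1 SD as a band. Crabp2, Stra6 and Aldh1a1 are the 3 members whose groups do not overlap, and the high points are control array 3 for Cyp26b1 (5.50) and antagomir array 3 for Rbp4 (1.59) and Crabp1.

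Stra6, the cell surface receptor for RBP4-bound retinol, was dim. Its probe is at chr9:58001701-58001760 (plus strand). Stra6 levels were -4.24, -3.17 and -3.27 on the control arrays and -5.83, -5.22 and -4.33 on the antagomir arrays. The groups did not overlap, but the closest pair, control array 1 and antagomir array 3, was only 0.09 apart. The probe was well above background on all 3 controls and not well above background on any antagomir array. It thus passed the filter on dim probes through the controls alone, and the antagomir side is only a bound. In the scaling used for these levels, the antagomir mean was at least 1.93-fold lower than the control mean. That bound sets the lowest level above background on each antagomir array against the controls. It holds for group means in that scaling and is not a minimum over single arrays or other settings. The measured means were -3.56 in controls and -5.12 with the antagomir, and this difference ran from -2.22 to -0.51 over the settings other than leaving out arrays. The lowest size, -0.51, came with normexp background correction and an offset of 50, and was smaller than the bound. The direction was the same in each of the 16 other settings in which the probe was tested.

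Rbp4, the blood carrier of retinol, was spread widely within the antagomir group. The Rbp4 probe is at chr19:38191120-38191179 (minus strand). Rbp4 levels were 0.02, 1.00 and 0.17 on the control arrays and -1.19, -0.12 and 1.59 on the antagomir arrays. Antagomir arrays held both the lowest and the highest level, so the groups overlapped throughout. The difference of -0.31 (SE 0.71) was smaller than its error. It was -1.05 without antagomir array 3 and 0.34 without antagomir array 1.

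Some hepatocyte markers, but not all, ran like Rbp4. The liver is the main source of circulating RBP4. Alb, which encodes serum albumin, had levels of -3.72, -1.61 and -4.53 on the control arrays and -5.59, -4.90 and 2.21 on the antagomir arrays. Serpina1a, a plasma protease inhibitor made in liver, had a level of 3.31 on antagomir array 3 and at most -0.33 on the other 5. Like Rbp4, Alb was highest on antagomir array 3, next on control array 2 and lowest on antagomir array 1. Ahsg, a liver glycoprotein and the third marker that passed the filter, did not share that order. Ahsg levels were 1.62, 1.17 and 3.19 on the control arrays and 1.64, 1.86 and 2.68 on the antagomir arrays, highest on control array 3 and lowest on control array 2. Without Ahsg, the summed signal of the other 2 was 0.476, 1.04 and 0.494 times the array's 75th percentile in controls and 0.24, 0.829 and 14.5 times with the antagomir. Of the remaining 2 of the 5 listed, Apoa1 was above background on antagomir array 3 only and Fgb was highest there, at 0.41.

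Antagomir array 3 is the array on which purine-rich dim probes were brighter. Compared with the mean of the other 5 arrays, it was higher by 6.28 for Alb (48.3% purines), 4.4 for Serpina1a (40%), 5.91 for Fgb (55%) and 4.47 for Apoa1 (51.7%). For Rbp4, with 48.3% purines and above background on all arrays, it was higher by 1.61. Dim probes with 45 to under 50% purines, the band of Rbp4 and Alb, were higher there by a median of 2.02 (quartiles 1.06 and 2.89). In the band of Serpina1a, 40 to under 45%, the median was 1.08 (upper quartile 2.19). For Apoa1, 50 to under 55%, it was 2.76 (upper quartile 3.50). For Fgb, 55 to under 60%, it was 3.26 (upper quartile 3.92). These bands hold only probes not above background on any of the other 5 arrays. Of the genes compared here, only Apoa1 was as dim. Rbp4, Alb and Serpina1a were above background on all 3 controls and Fgb on 1. For these genes the bands are therefore not of probes of like brightness. The part of these markers, and of the brightening, in the Rbp4 values was not tested.

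Dhrs3, the reductase that turns retinaldehyde back into retinol, was the most even of the measured members. The Dhrs3 probe is at chr4:144517485-144517544 (plus strand). Dhrs3 levels were 5.77, 5.83 and 6.14 on the control arrays and 5.90, 5.94 and 6.03 on the antagomir arrays. The antagomir levels all fell inside the control range, and the 6 arrays spanned 0.37. The difference was 0.04 (SE 0.15), and it was the one member with a higher antagomir mean. Its sign turned with the scaling: the difference was -0.43 with scaling by the median and -0.09 with quantile scaling. Relative to the median of all genes, which was 0.09, -0.38 and -0.03 in these 3 scalings, Dhrs3 stood at -0.05, -0.05 and -0.06.

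Of the 3 retinaldehyde dehydrogenases, Aldh1a1 was lower on every antagomir array than on any control. This enzyme is widespread in adult tissues. The Aldh1a1 probe is at chr19:20717764-20717823 (plus strand). Aldh1a1 levels were 4.47, 5.53 and 4.55 on the control arrays and 3.96, 4.19 and 4.13 on the antagomir arrays. Control array 2 stood above the rest, and the other controls were near the antagomir levels, with 0.28 between the closest pair. The difference was -0.75 (SE 0.31) or 1.69-fold. Without control array 2 it was -0.42, and within the shared slide row it was -0.46. Mice carry a close paralog of this gene, Aldh1a7, which is not a member. The Aldh1a7 probe had levels of -4.12, -2.52 and -3.44 on the control arrays and -4.59, -2.89 and -2.01 on the antagomir arrays, with overlapping groups and a difference of 0.20. The files do not say how far either probe binds the other transcript.

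Aldh1a2, the epicardial enzyme, did not separate the groups. The Aldh1a2 probe is at chr9:71143931-71143990 (plus strand). Aldh1a2 levels were 0.82, 1.12 and 0.88 on the control arrays and 1.12, 1.52 and -0.08 on the antagomir arrays. The antagomir group again held both extremes, with array 2 highest and array 3 lowest, while the controls lay close together (SD 0.16, n = 3). The difference was -0.08 (SE 0.42), and 0.38 without antagomir array 3.

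Aldh1a3, the third enzyme of the family, was likewise spread within the antagomir group. The Aldh1a3 probe is at chr7:73535785-73535844 (minus strand). Aldh1a3 levels were -2.53, -1.59 and -2.07 on the control arrays and -3.32, -1.04 and -2.84 on the antagomir arrays. Antagomir array 2 was the highest of all and the other antagomir arrays the lowest, so that the groups overlapped. The difference was -0.33 (SE 0.62), -0.92 with quantile scaling, -1.01 without antagomir array 2 and 0.12 without antagomir array 1. With 58.3% purines it matched Crabp1 in composition, but it was well above background on all arrays and was no brighter on antagomir array 3, which lay 0.73 below the mean of the other 5.

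Markers of epicardium and mesothelium, the outer cell layer of the heart, had the same extremes as Aldh1a2 when averaged. Antagomir array 2 was highest and antagomir array 3 lowest in the mean deviation of the 12 such markers that passed the filter, with values of 1.15 and -1.20 around each marker's own mean. Wt1, a transcription factor of epicardial cells, had levels of 0.84, 0.96 and 0.64 on the control arrays and 0.67, 1.60 and 0.12 on the antagomir arrays. Single markers differed: 9 of the 12 were highest on antagomir array 2 and 8 were lowest on antagomir array 3. Krt8, Krt18 and Tbx18, the 3 whose groups did not overlap, with the antagomir lower, were highest on control array 2, and Tbx18 was lowest on antagomir array 2. Aldh1a3 shared the highest array with the averaged list but was lowest on antagomir array 1. The summed signal of the list was 6.56 to 14.1 times the 75th percentile in controls and 3.34 to 16.9 times with the antagomir, and 8 of 12 markers had a lower antagomir mean (11 of 12 with quantile scaling or scaling by the median). The part of this layer in the Aldh1a2 and Aldh1a3 values was not tested.

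Cyp26b1, which inactivates retinoic acid by hydroxylation, was far higher on control array 3 than on the other controls. The Cyp26b1 probe is at chr6:84521952-84522011 (minus strand). Cyp26b1 levels were 2.22, 1.5 and 5.50 on the control arrays and 2.05, 3.54 and 3.08 on the antagomir arrays. Control array 3 was the highest of all, and the other 2 controls lay among or below the antagomir arrays. The difference was -0.18 (SE 1.07) over all arrays and 1.03 without control array 3. Within the slide row that holds both groups, where control array 3 is the only control, it was -2.61. Of 6 endothelial markers, 2 were highest on control array 3: Vwf, at 6.30 against 5.12 to 5.72 elsewhere, and Kdr, at 3.90 against at most 3.82. Pecam1, Cdh5 and Tek were highest on antagomir array 1 and Tie1 on control array 1. The summed signal of all 6 was highest on control array 3, at 119 times the 75th percentile. It was 80.9 and 85.7 times on the other controls and 66.6 to 92.2 times with the antagomir. Without Vwf, the sum of the other 5 was 40.2 times on control array 3. That sum was 39.3 and 36.7 times on the other controls and 32.0 to 39.6 times with the antagomir. The part of endothelium in the Cyp26b1 values was not tested.

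**Figure D2:**
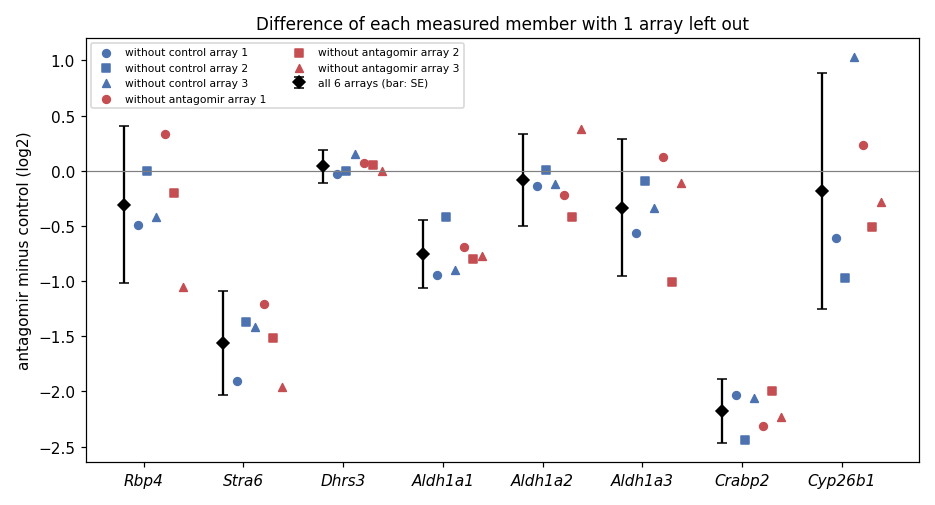
Antagomir minus control difference (log2) of the 8 members measured, with all 6 arrays (black diamonds, bar 1 SE) and with each array left out (blue, a control; red, an antagomir array). Crabp2 stays between -2.44 and -2.0, while Cyp26b1 moves from -0.18 to 1.03 without control array 3 and Aldh1a2 from -0.08 to 0.38 without antagomir array 3.

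Counted together, 7 of the 8 members measured had a lower antagomir mean and 1 a higher one, with a median difference of -0.32. Among all 22991 genes tested 37.4% had a lower and 62.6% a higher mean, and the median difference was 0.09. That split depends on the scaling: 54.2% of all genes were lower with quantile scaling and 87.0% with scaling by the median, and 8 of 8 members in both. Groups did not overlap, with the antagomir lower, for 3 of the 8 members and for 6.93% of all genes. They did not overlap, with the antagomir higher, for 0 of the 8 members and 8.78% of all genes. By limma, with Benjamini-Hochberg adjustment over all genes, 3 genes were called at an adjusted p under 0.05 (0.013%), and 0 of the 8 members were among them. At an unadjusted p under 0.05 there were 3 members against 7.21% of all genes. With scaling by the median limma called 199 genes, of which 1 was a member, Crabp2. There each member measured had the same SE, 0.60, whatever its own spread. The members were chosen on this contrast, so nothing is read from these counts.

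The members differed among themselves in how their levels ran over the arrays. Likeness was taken as the root mean square difference between the levels of 2 genes on the 6 arrays after each gene's own mean was removed. Between members it ran from 0.54 (log2), for Dhrs3 and Aldh1a2, to 1.60, for Crabp2 and Cyp26b1. For Stra6 and Crabp2 it was 0.80, and for Stra6 and Aldh1a1 it was 0.64. Among all other genes, the one nearest to Aldh1a1 was Rtkn, at 0.060. The nearest to Crabp2 were Htr2b, at 0.32, and Nrg1, at 0.495. Aldh1a2 was nearest to Mtmr7 at 0.097 and Tnfaip3 at 0.114, and Aldh1a3 to Dennd2d at 0.124 and Oas1f at 0.162. Dhrs3 lay at 0.042 from Gm10136, and the nearest to Rbp4, Stra6 and Cyp26b1 were transcripts without a gene symbol. With 6 arrays and 22991 genes such neighbours are a description of these arrays.

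Beyond the members, 72 other genes of the pathway were listed by role, and 54 of them passed the filter on dim probes. By limma 0 of the 54 passed the adjusted threshold. At an unadjusted p under 0.05, 3 had a lower antagomir level (Cyp26a1 and Rai14 among them) and 2 a higher one (Lipe and Hoxa5), against 4.16% and 3.05% of all genes. Of the 54, 36 had a higher mean and 18 a lower one (33.3% lower), close to the 37.4% of all genes, and the median difference was 0.10. With scaling by the median 44 of the 54 were lower, as were 87.0% of all genes. Fabp5, which delivers retinoic acid to another nuclear receptor, had no usable spot on 1 array and was left out.

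Cyp26a1, the other main retinoic acid hydroxylase, had the largest difference of the pathway genes. Cyp26a1 levels were -2.80, -0.58 and -1.77 on the control arrays and -4.51, -4.43 and -3.47 on the antagomir arrays. All antagomir arrays lay below all controls, and control array 2 was the highest. The difference was -2.42 (SE 0.60) and did not pass limma's test over all genes (adjusted p = 0.556). With scaling by the median it passed (difference -2.89, limma adjusted p = 0.0005). There limma gave each member measured and each named pathway gene the same SE, 0.60, whatever its own spread. With normexp background correction the Cyp26a1 difference was -1.28. The probe was well above background on 3 controls and 2 antagomir arrays. Cyp2s1, a cytochrome P450 that can also oxidise retinoic acid, had a difference of -0.51 (SE 0.93), with the lowest level, -3.26, on antagomir array 3 and the highest, 0.36, on antagomir array 2.

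Of the 7 genes of retinol transport measured, 3 were higher and 4 lower, and 5 of 7 were lower with scaling by the median. Rbp2, a retinol carrier of the intestine, had a difference of 0.87 (SE 0.74), which was -0.01 without antagomir array 3. Rbp3, a retinoid carrier best known from the retina, had a difference of 0.36 (SE 0.39).

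Of the 3 measured genes of retinyl ester storage, all 3 had a higher antagomir mean in the 75th percentile scaling, and 1 of 3 with scaling by the median. Lipe encodes hormone-sensitive lipase, which also releases retinol from its esters. Lipe levels were -1.23, -2.05 and -1.07 on the control arrays and -0.65, -1.0 and -0.20 on the antagomir arrays. The groups did not overlap, but the highest control and the lowest antagomir array were almost level. The Lipe difference was 0.84 (SE 0.33, limma adjusted p = 0.684). Lipe is highly expressed in fat. Adipocyte markers had a higher antagomir mean in 7 of 7 measured (6 of 7 with scaling by the median), with a median difference of 2.85, and the groups overlapped for each of them. Fabp4, by far the brightest, had a difference of 0.24 (SE 0.18). The other 6 summed to 0.13, 1.54 and 6.06 times the 75th percentile on the control arrays and 2.56, 18.7 and 16.4 times on the antagomir arrays. Unlike Lipe, 6 of the 7 were higher on control array 3 than on antagomir array 1. Lep was not above background on any array. The part of fat in the Lipe values was not tested. Dgat1, which can esterify retinol, had a difference of 0.19 (SE 0.15), and Lrat, the main retinol esterifying enzyme, one of 0.15 (SE 0.59).

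Oxidoreductases of retinol and retinaldehyde, with Aldh8a1 and Aox1 among them, were mostly near the median of all genes. Of the 15 measured, 13 had a higher and 2 a lower antagomir mean, with a median of 0.18, and with scaling by the median 11 were lower. Rdh10, the main retinol dehydrogenase of the embryo, had levels of -1.06, -1.36 and -1.02 on the control arrays and -0.60, -1.28 and -1.27 on the antagomir arrays. These overlapped, with a difference of 0.10 (SE 0.23). The smallest unadjusted p-values of the list belonged to Rdh11, with a difference of -0.51 (SE 0.24), Rdh14, with 0.37 (SE 0.20), and Dhrs7c, with 0.63 (SE 0.34), and none of them passed limma's adjusted threshold. Dhrs7c is a short-chain dehydrogenase of heart and skeletal muscle. Its groups did not overlap, with 4.45 on control array 2 against 5.54 or more elsewhere.

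The nuclear receptors differed little. Of 7 measured, 6 had a higher and 1 a lower antagomir mean, with a median of 0.15, and all 7 were lower with scaling by the median, where the median of all genes was -0.38. Rarg, a retinoic acid receptor of many tissues, had levels of 3.21, 3.26 and 3.72 on the control arrays and 3.20, 2.95 and 3.04 on the antagomir arrays. The groups did not overlap, although control array 1 and antagomir array 1 were almost level, and the Rarg difference was -0.33 (SE 0.19, limma adjusted p = 0.691). The differences of the receptors Rara and Rarb were 0.02 (SE 0.19) and 0.09 (SE 0.32), and a second Rara probe gave -0.40. The partner receptors Rxra and Rxrg had differences of 0.33 (SE 0.22) and 0.37 (SE 0.29). Of the 7 coregulators that these receptors recruit, 4 were higher and 3 lower, and all 7 were lower with scaling by the median. The 3 with the smallest p-values were Ncoa1 with a difference of 0.24 (SE 0.20), Ncoa2 with 0.15 (SE 0.15) and Nrip1 with -0.15 (SE 0.13).

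Genes listed as known to be induced by retinoic acid were mixed. The list leaves out the members and the genes listed under another role, Cyp26a1 and Rarb among them, so it is not complete. Of 13 measured, 7 were higher and 6 lower, with a median of 0.01, and 10 of 13 were lower with quantile scaling or scaling by the median. Rai14, named for its induction by retinoic acid, had levels of 1.00, 1.72 and 0.85 on the control arrays and 0.06, 0.60 and -0.15 on the antagomir arrays. All antagomir arrays were below all controls, and the difference was -1.02 (SE 0.31, limma adjusted p = 0.618). Hoxa5, a homeobox gene, had levels of -4.20, -5.72 and -5.52 on the control arrays and -4.31, -3.14 and -3.35 on the antagomir arrays. It was dim, above background on 1 control and 3 antagomir arrays, and the groups overlapped. The Hoxa5 difference of 1.55 (SE 0.50, limma adjusted p = 0.651) was 0.56 with quantile scaling and 0.19 with normexp background correction.

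**Figure D3:**
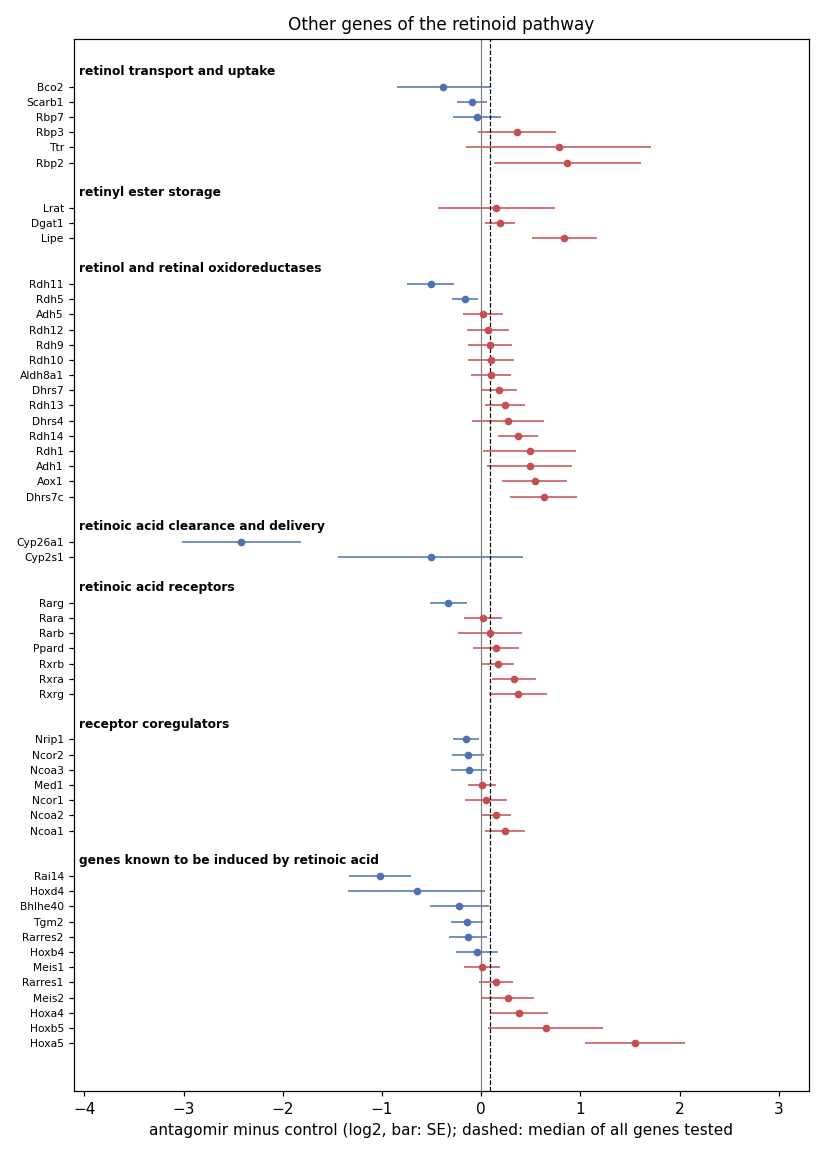
Antagomir minus control difference (log2, bar 1 SE, n = 3 per group) of 52 measured pathway genes by role, red for a higher and blue for a lower antagomir mean. The dashed line is the median of all genes tested (0.09); most points lie near it, and Cyp26a1 (-2.42) lies farthest to the left of those drawn.

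Fibroblast markers had lower antagomir means, as did the 3 members whose groups did not overlap. All 9 of 9 such markers had a lower antagomir mean (the Dcn difference rounded to 0), under each of the 5 scalings. Their median difference was -1.59, and -2.06 to -1.66 with the other scalings. The groups of 6 of the 9 did not overlap, with the antagomir lower, against 6.93% of all genes. By limma 0 of the 9 passed the adjusted threshold. At an unadjusted p under 0.05, 6 had a lower antagomir level, against 4.16% of all genes. The summed signal was 747 to 981 times the 75th percentile in controls and 384 to 572 times with the antagomir, and no defining marker was at background. Dcn, the brightest of the 9 on every array, makes up a large part of each sum. Dcn levels were 8.45, 8.48 and 8.73 on the control arrays and 8.58, 8.75 and 8.32 on the antagomir arrays. Postn, a protein of activated fibroblasts, had levels of 3.97, 5.31 and 3.55 on the control arrays and -0.30, 1.7 and 0.29 on the antagomir arrays. Pdgfra and Tcf21, markers of resident fibroblasts, had differences of -0.35 (SE 0.21) and -0.53 (SE 0.36), both with overlapping groups. Control array 2, highest for Postn, was also highest for Aldh1a1, Stra6 and Cyp26a1, and was the lowest control for Crabp2. On antagomir arrays 1 to 3 the mean deviation of the 9 markers was -0.91, -0.42 and -1.27. Within that group Aldh1a1 was also highest on array 2, but Crabp2 was lowest there and Stra6 was highest on array 3. In whole tissue, fewer cells of a type and less RNA per cell cannot be told apart. The part of fibroblasts in the values of Crabp2, Stra6 and Aldh1a1 was not tested.

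**Figure D4:**
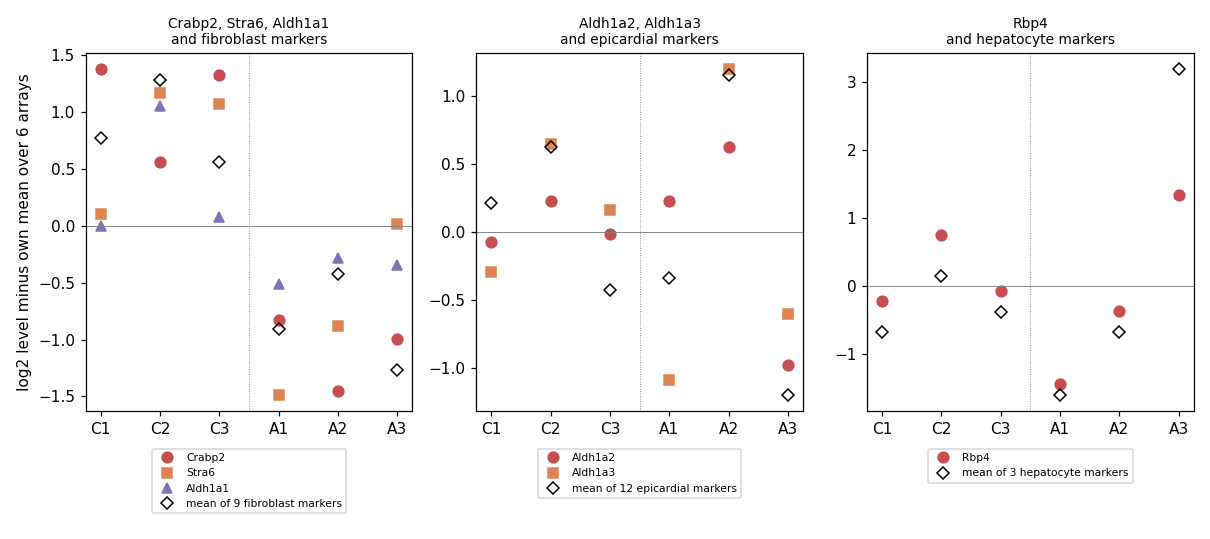
Level of members on each array minus their own mean over the 6 arrays (log2, filled symbols), beside the mean of the marker list named in each panel, treated the same way (open diamonds). C1 to C3 are controls and A1 to A3 antagomir arrays; fibroblast markers are above their mean on all controls, epicardial markers peak on A2 (1.15) and the hepatocyte mean peaks on A3 (3.19), as Rbp4 does, although Ahsg, 1 of its 3 markers, is highest on C3.

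In the 250 bases before the transcription start, RefSeq (GRCm38.p6) gave 14 windows for 7 of the 9 members. There was no window for Crabp2 or Aldh1a3, so these were not searched. The letters AGGTCA, the core motif of nuclear receptor sites, were searched on both strands and were in 0 of these windows, against 14% of the 32851 windows of all genes. Direct repeats of that motif spaced by 5 bases, a form of retinoic acid response element, were in 0.0883% of all windows. This says only that these letters are not in these windows.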

How the data were processed

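Each of 6 heart samples was labelled with Cy3 and hybridised to a 1-colour Agilent array. The deposited files are the output of Agilent Feature Extraction 10.7.1.1, per the file headers. They hold for each spot a processed signal, mean signal and local background as intensity values, with other columns of 0 or 1 that mark background, saturation and outliers. The processed signal is corrected for background within the array and not normalised between arrays. The authors' deposited table holds raw columns of intensity and normalised columns in log2 units, made by a method not given in the sources used here. Of its columns of values per sample, 6 were not used.

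After removal of controls and outliers, repeated spots of a probe were averaged. Of 55681 gene probes, 20 lacked a usable spot on at least 1 array and were dropped. Names came from a RefSeq table (GRCm38.p6): 26568 probes by accession, 2605 by symbol, 492 by synonym. The array's own name was used for the other 25996. Coordinates of probes come from the array's own annotation (mm9). The 75th percentile of each array's log2 processed signal was subtracted. Tested were probes called well above background by the scanner software on 3 or more of 6 arrays (31716), and the brightest stood for its gene (22991 genes). Of the 72 pathway genes 13 had more than 1 tested probe, and the signs of the probes differed for Scarb1, Rara, Ncoa3 and Med1 among those reported. The precision is limited by 3 arrays per group.

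The comparison used limma 3.58.1 under R 4.3.3 (two-sided, Benjamini-Hochberg adjusted p under 0.05). Other steps used numpy 2.4.6 and pandas 2.3.3 under Python 3.11.15, and figures matplotlib 3.10.9. Tested on simulated data of this comparison (22991 genes, 200 of them changed), the same steps called 0 genes changed 2-fold, 143 changed 4-fold and 175 changed 16-fold. False calls numbered 0, 13 and 9. The simulated noise was normal and independent between genes and arrays, without the brightening of antagomir array 3, so recovery in the real arrays can differ. Where a group was not above background, the fold is a bound against the lowest signal above background on each array. The members and lists were chosen with earlier results of these data known. Named are all members, Rdh10, Cyp26a1, Rara, Rarb, Rarg and Rxra, pathway genes past the threshold, the 3 with the smallest p per role, and for each member the 2 most alike genes. Some genes named by this rule are not reported here. Markers given singly, Aldh1a7 and Scarb1, Ncoa3, Med1 and Fabp5 were chosen after their values were seen. Marker lists covered 11 cell types. Those of smooth muscle, macrophages, lymphocytes and Schwann cells, not used above, had median differences of -0.50, -0.24, -0.23 and 0.61. That of atrial cardiomyocytes had a median difference of 2.03. Alternatives were 3 other scalings or background corrections, the authors' normalised values, averaging a gene's probes, other filters and variance models, array weights, blocks and each array left out.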

Additional observations from a re-analysis of the deposited data

How the results depend on the processing

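Crabp2, Stra6 and Aldh1a1 kept their direction in each setting in which they were tested. Stra6 was not tested with the filter on all 6 arrays. These 3 are singled out because their groups did not overlap on the same arrays, so nothing is read from the kept direction. Members with a lower mean numbered 6 to 8 of those measured in the settings that kept all arrays. Leaving out 1 array at a time gave 4 to 8 such members, 4 without antagomir array 1. Genes called numbered 3, and 199 with scaling by the median, 1 with quantile scaling, the authors' values or no filter, 0 with normexp, with the filter on all 6 arrays, with the slide row as a block and with the replicate number as a block (replicate block), and 8 with array weights; leaving out arrays gave 0 to 3. With 0 called, unadjusted p-values under 0.05 numbered 1877 with normexp, 1589 with the filter, 307 with the row and 2272 with the replicate block. Pathway genes with a lower mean numbered 18, and 44 with scaling by the median, 28 with quantile scaling, normexp or the authors' values, 33 with the slide row as a block and 19 to 29 with arrays left out, 29 without control array 2. With scaling by the median, each member measured and each named pathway gene had the same SE, 0.60. Among these genes a call there followed the size of the difference alone. The cause of the changed counts was not tested.

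Replicate numbers are not shown to pair the arrays: same-numbered arrays correlated in their deviations by 0.222, 0.142 and -0.049, and control array 3 correlated best with antagomir array 1. The replicate block left 7 members and 18 pathway genes lower. It took the genes called from 3 to 0, and no member or pathway gene was called with or without it.

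Signs turned for 13 of 23 named pathway genes. With scaling by the median, differences were -0.11 (Rbp3), -0.32 (Lrat), -0.28 (Dgat1), -0.37 (Rdh10), -0.10 (Rdh14), -0.45 (Rara), -0.38 (Rarb), -0.14 (Rxra), -0.10 (Rxrg), -0.23 (Ncoa1) and -0.32 (Ncoa2), where the median of all genes was -0.38. With quantile scaling or the authors' values Lrat was at -0.68 and Rara at -0.027, and with normexp at -0.06 and -0.022. Array weights gave -0.66 for Lrat, and the mean of probes -0.19 for Rara. Blocking on the slide row gave -0.024 (Rdh10), 0.20 (Cyp2s1), -0.17 (Rara), -0.47 (Rarb), -0.005 (Rxrg), -0.071 (Ncoa1) and -0.019 (Ncoa2). With 1 array left out at a time, values ran from -0.01 to 1.39 for Rbp2, -0.005 to 0.62 for Rbp3, -0.46 to 0.55 for Lrat, -0.13 to 0.22 for Rdh10, -1.49 to 0.32 for Cyp2s1, -0.12 to 0.13 for Rara and -0.22 to 0.37 for Rarb.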
